A study of Arabidopsis thaliana with 9 samples.

Results

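Among the annotated non-coding loci of Arabidopsis thaliana represented on a custom array, 90 of 301 (29.9%) had a signal that was clearly higher in 1 organ than in both others, against 11.8% of all 5076 genes on the array. Root was the preferred organ of 41 of these loci, inflorescence of 26 and leaf of 23. Among genes well above background on at least 2 arrays of an organ, the share was 30.6% of the annotated non-coding loci and 18.1% of all genes. The share was larger among microRNA precursors (43%) and protein-coding genes (44.1%) so detected. Most genes on the array are long intergenic non-coding RNAs (lincRNAs), and the 301 loci are those with an Arabidopsis locus code that the RefSeq annotation classes as neither protein-coding nor microRNA, with 1 further such locus left out by the rule. A locus was kept when 1 organ was well above background on at least 2 arrays, had a mean at least 1 log2 unit above both other organ means, and had its lowest array above the 6 arrays of the other organs, all judged on the probe with the highest mean in the authors' deposited table. The choice therefore used the signals themselves, so that the level in the preferred organ against the others is given as a description, with no test.

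RNA came from 3 biological replicates per organ, on 9 arrays of 1 colour in all. The growth protocol names wild-type Col-0 plants, while the ecotype labels run from Col-0 to Col-8 over the 9 samples. Inflorescences, with buds, open flowers and some siliques at a very early stage, were taken from plants of 4 weeks raised on Murashige-Skoog plates or in a greenhouse. Leaves and roots were taken at 30 days from plants in hydroponic MGRL medium. On plates and in the greenhouse days had 16 h of light at 22 °C, and the labels name no treatment. Organ, age and culture changed together between inflorescence and the other organs and cannot be told apart, whereas leaf and root shared age and culture. RNA of whole organs was measured, so that fewer cells of a type and less RNA per cell cannot be told apart.

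Long non-coding RNAs are transcripts without a protein product. Some lie in antisense orientation over a coding gene and can affect its transcription, some are processed into small RNAs, and for many no role is known. In plants and animals they are often found in fewer tissues than messenger RNAs.

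Slide 1 held replicates 1 and 2 of each organ and slide 2 held replicate 3. Leaf replicate 2 stood apart, with 10.7% of its probes well above background against 24.1% to 39.9% on the other arrays. Of the 90 loci, 53 were well above background on leaf replicate 2 and 79 to 88 on each other array. Without leaf replicate 2 the same choice gave 92 loci, the 90 among them. The labelled organs could not be checked against tissue markers, because 0 of 18 marker genes looked for (leaf, flower, root and pollen) were on the array. Below, a level is the log2 processed signal minus the array's 75th percentile over the 1367 probes well above background on all arrays, values for an organ follow replicates 1, 2 and 3, and the margin is the preferred organ's mean minus the higher of the other organ means.

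The 90 loci were 30.6% of the 294 annotated non-coding loci that were well above background on at least 2 arrays of an organ. The same choice kept 18.1% of all 3307 genes so detected, 14.6% of 2780 lincRNAs, 43% of 135 microRNA precursors and 44.1% of 93 protein-coding genes. By organ, 13.9% of the detected annotated loci were kept for root against 7.62% of all detected genes, 8.84% for inflorescence against 4.93%, and 7.82% for leaf against 5.53%. The coding genes were picked by the designers of the array.

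The margins of the 90 loci had a median of 1.97 on the log2 scale and ran from 0.92 to 10.67. At least 4-fold separated the preferred organ from the next in 44 loci and at least 16-fold in 16, of which 8 preferred inflorescence, 7 root and 1 leaf. Of the 211 loci that were not kept, 203 were detected but had a margin under 1 in the deposited table, 7 were not detected on 2 arrays of any organ, and AT1G02952 had a margin of 1.51 but overlapped the other organs by 1.22. The margin of the 204 detected loci outside the choice had a median of 0.31. Just inside the limit lay AT5G41612 (leaf, margin 1.02 in the deposited table) and AT2G45685 (inflorescence, 1.06), and just outside lay AT5G03285 (leaf, 0.996) and AT3G05152 (inflorescence, 0.964). The smallest gap between the lowest array of the preferred organ and the highest other array was 0.31 in the deposited table, at AT3G54625.

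**Figure D1:**
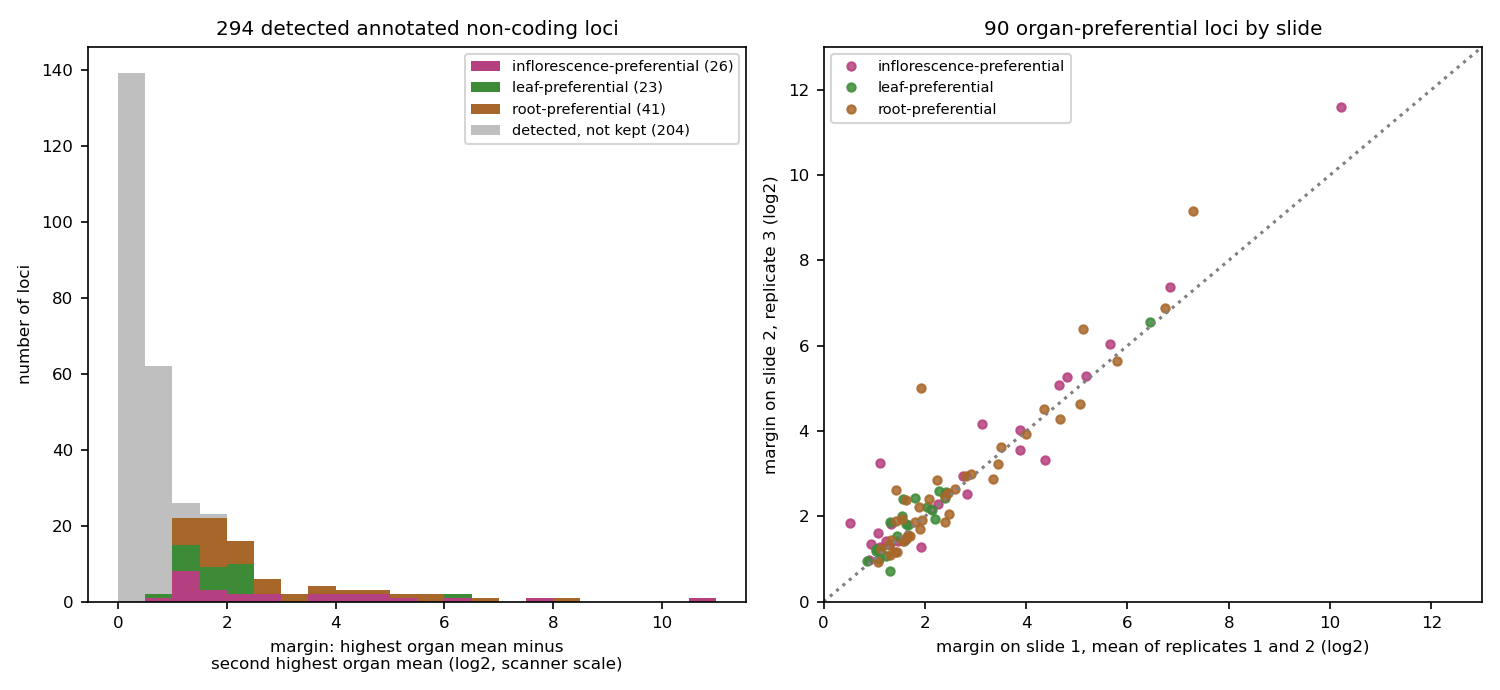
Left, histogram of the margin (highest minus second highest organ mean, log2) over the 294 detected annotated non-coding loci, stacked by preferred organ with detected loci that were not kept in grey. Right, the margin of each of the 90 loci on slide 1 (mean of replicates 1 and 2, horizontal axis) and on slide 2 (replicate 3, vertical axis), with equality as a dotted line; the points start at 0.52 on slide 1 and at 0.73 on slide 2, and the choice of loci used the arrays of both slides.

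Since the choice used the arrays of both slides, and in the deposited table makes the margin positive on each, the slides are given for the size of the margin alone. It was at least 1 for 86 loci on slide 1 and for 85 on slide 2. The lowest margin was that of AT3G54625 on slide 1 (0.52) and of AT3G22121 on slide 2 (0.73). Pooled over the organs, the standard deviation between replicates had a median of 0.19 over the 90 loci and reached 1.47 at AT2G06002, whose root arrays spread from -9.06 to -4.23. Lack of overlap was a condition of the choice in the deposited table. On the scanner scale AT2G19796 and AT3G54625 did overlap the other organs.

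**Figure D2:**
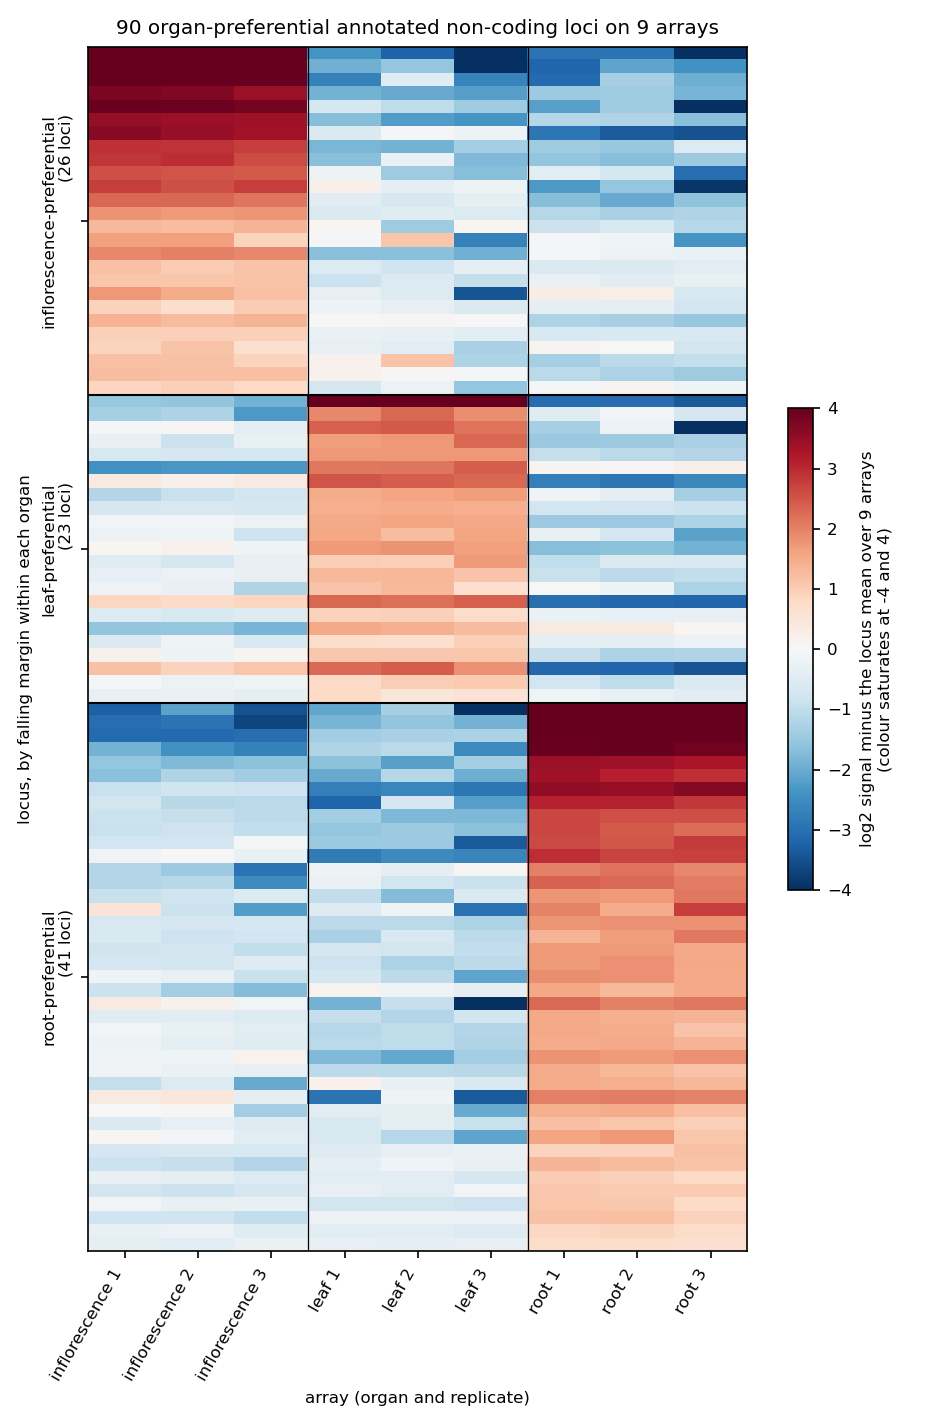
Heat map of the 90 loci (rows, by preferred organ and falling margin) on the 9 arrays (columns, by organ and replicate). Colour gives the log2 signal minus the locus mean over the 9 arrays and saturates at -4 and 4; each block of 26 inflorescence-preferential, 23 leaf-preferential and 41 root-preferential loci is red in its own organ.

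The inflorescence-preferential loci held the largest margin of the set, at AT4G04077, a locus of 826 nt on chromosome 4. Its level was 4.63, 4.74 and 4.71 in inflorescence, against -5.11, -5.94 and -6.88 in leaf and -5.68, -5.67 and -9.24 in root. The 3 inflorescence arrays lay close together and far above every other array. The means differed by 1633-fold from leaf and 3021-fold from root, but leaf was well above background on 1 array and root on 2, so these folds are not exact. AT4G04077 overlaps the small coding gene AT4G04078, to which the annotation gives no symbol.

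AT5G40348 (chromosome 5, 4652 nt) overlaps MYB24, a transcription factor of stamen maturation in the jasmonate response. Its level was 0.74, 0.79 and 0.59 in inflorescence, against -6.28, -5.89 and -8.40 in leaf and -7.52, -6.45 and -6.79 in root, a margin of 7.56, with leaf well above background on 1 array and root on 2. AT2G42835 (chromosome 2, 2718 nt) overlaps SHP2, a MADS-box transcription factor of carpel and fruit development. Its level was -1.76, -1.85 and -1.78 in inflorescence, against -8.56, -6.35 and -8.55 in leaf and -8.97, -7.20 and -7.81 in root. No leaf or root array was well above background for AT2G42835, so that its signal was at least 20.9-fold higher in inflorescence than in leaf and at least 43.9-fold higher than in root. These bounds set the inflorescence mean against the lowest detected signal of each array, or the probe's own signal where that was higher. It was the 1 locus of the 90 with both other organs below detection.

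AT2G47895, which overlaps AT2G47890 and the tubby-like gene TLP3, was measured on all 9 arrays. Its level was 3.39, 3.33 and 3.06 in inflorescence, against -2.26, -2.40 and -2.59 in leaf and -1.84, -1.80 and -2.23 in root. Inflorescence stood 51.1-fold above leaf and 37.2-fold above root. As the bound for AT2G42835 is smaller than these folds, the order of the margins of AT2G42835 and AT2G47895 is not settled. The other loci among the 10 largest margins in inflorescence were AT5G49138 (margin 4.95), AT2G30984 (4.78), AT2G26692 (4.04), AT3G18362 (4.02), AT5G20225 (3.78) and AT2G15555 (3.62). Of the other probes of AT2G30984, that well above background in inflorescence had a margin of 0.85. The remaining probe, at -0.45, was well above background on no inflorescence array. AT2G26692 overlaps AT2G26690, the nitrate and peptide transporter family member NPF6.2, and AT2G15555 neighbours LCR10, a gene of the cysteine-rich peptide family. AT5G20225 was at -2.69, -2.84 and -2.99 in inflorescence and below detection on the 3 root arrays, which makes inflorescence at least 22.2-fold higher than root.

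Smaller margins in inflorescence were found at further loci that were picked for their overlap or neighbour after the values were seen. AT5G49152, which overlaps the gamete membrane protein gene GEX2, had a margin of 1.63. AT2G45685, over the TCP family transcription factor gene TCP9, had a margin of 0.92, and AT5G01732, over SCAR4, a regulator of actin assembly, had 1.08. Loci beside genes for myo-inositol oxygenase differed. AT4G26255 beside MIOX4 had a margin of 2.72 and AT2G19796 beside MIOX2 had 1.94. AT1G14518 beside MIOX1 was instead highest in leaf, with a margin of 0.36, and was not kept. AT2G41312 lies beside RR3, a response regulator of the cytokinin pathway, and had a margin of 1.32 with levels of 0.99, 0.86 and 0.95 in inflorescence. Over the 26 loci the median margin was 2.21. Leaf was the second organ for 17 of them and root for 9.

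**Figure D3:**
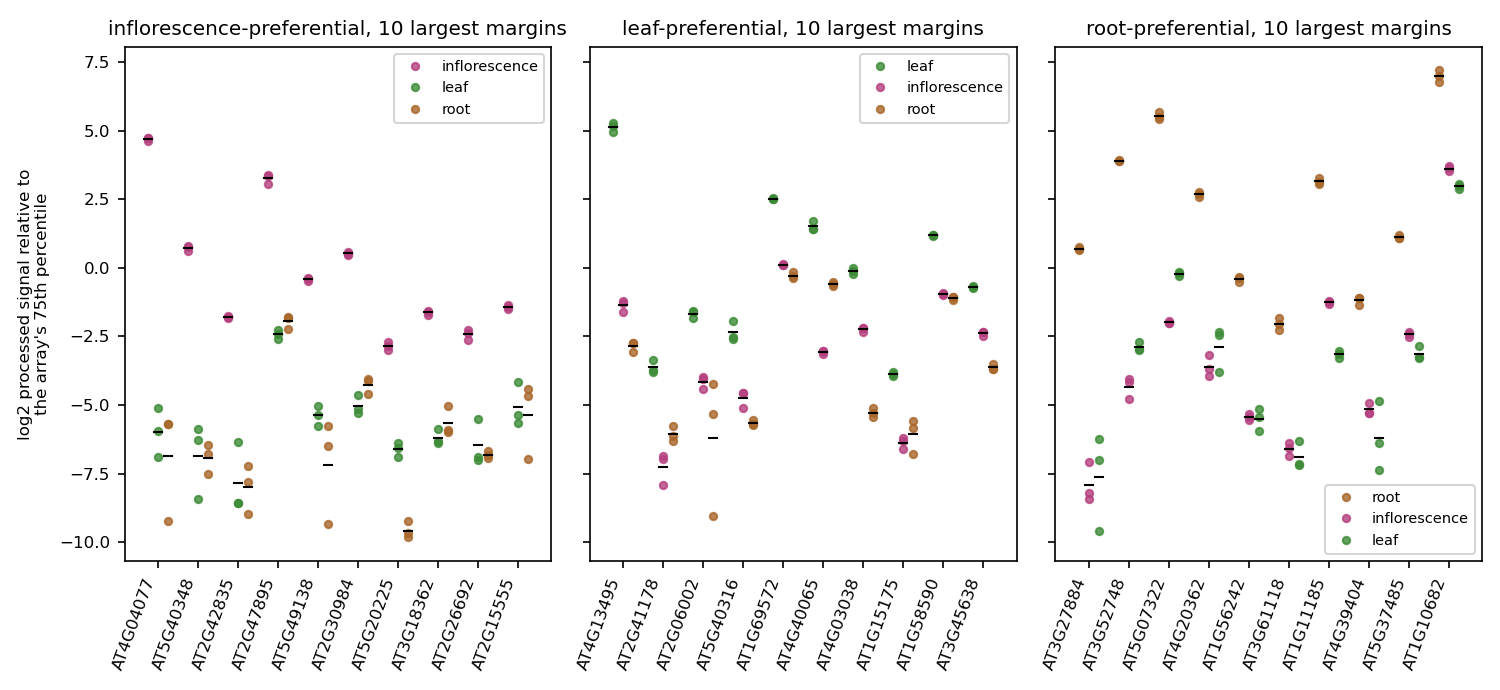
Levels (log2 processed signal relative to the array's 75th percentile) of the 10 loci with the largest margins in each organ; points are arrays, 3 per organ, and bars are organ means. In every panel the preferred organ's 3 points lie above the points of the other organs, and the 3 points of AT4G04077 in inflorescence lie between 4.63 and 4.74.

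In leaf 1 locus stood far from the rest. AT4G13495 (chromosome 4, 3808 nt) spans the microRNA genes MIR5026, MIR850 and MIR863. Its level was 5.15, 5.26 and 4.95 in leaf, against -1.22, -1.27 and -1.60 in inflorescence and -2.74, -2.75 and -3.07 in root. Leaf was 89.5-fold above inflorescence and 251-fold above root, and all 9 arrays were well above background. The array also carried probes for 2 of these microRNA precursors. MIR850 was at -0.31, -0.45 and -0.19 in leaf, against a mean of -6.61 ± 0.69 in inflorescence and -8.03 ± 0.74 in root (SD, n = 3 each), with no root array well above background. MIR863 averaged -1.60 ± 0.04 in leaf and was below detection on the inflorescence and root arrays (SD, n = 3). Host locus and both precursors were thus highest in the same organ. Whether the precursor probes also read the host transcript was not tested.

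The next leaf-preferential loci had margins of 2.47 or less. AT1G69572, which overlaps the coding gene AT1G69570 on chromosome 1, was at 2.52, 2.53 and 2.52 in leaf, against 0.14, 0.11 and 0.09 in inflorescence and -0.16, -0.31 and -0.38 in root. Leaf was 5.31-fold above inflorescence and 6.99-fold above root, with a replicate spread of 0.06 (pooled SD). AT1G58590 behaved likewise, at 1.18, 1.21 and 1.17 in leaf, against -0.96, -0.92 and -0.99 in inflorescence and -1.05, -1.05 and -1.16 in root. AT2G41178 overlaps SIB2, a sigma factor binding protein gene of the defence response, and stood 5.44-fold above root and 12.5-fold above inflorescence, which was well above background on 1 array. AT3G45638, beside the immune MAP kinase gene MPK3, had a margin of 1.71. The remaining loci among the 10 largest in leaf were AT2G06002 (margin 2.47), AT5G40316 (2.39), AT1G15175 (2.20), AT4G03038 (2.12) and AT4G40065, which stood 4.28-fold above root. AT1G15175 was the 1 locus of the 90 kept on detection in 2 arrays of its organ.

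Further leaf-preferential loci, picked after the values were seen because they overlap genes of known function, were AT1G53233 over TCP3, a transcription factor of leaf shape (margin 1.84), AT3G13061 over ECT5, a protein of the family that reads methylated adenosine in RNA (1.69), AT5G19221 over APL1, a subunit of the starch enzyme ADP-glucose pyrophosphorylase (1.70), AT1G13448 over the light-response factor gene GT-1 (1.54) and AT3G21781 over UGT71B6, a glucosyltransferase of abscisic acid (1.52). The other probes of AT5G19221 were instead highest in root, with margins of -1.61 and -0.78, and were well above background on 1 and 2 leaf arrays. All 23 leaf-preferential loci had a median margin of 1.70, with inflorescence as the second organ in 15 and root in 8. All 9 arrays were well above background for 20 of the 23, against 9 of the 26 inflorescence-preferential and 22 of the 41 root-preferential loci. The low detection on leaf replicate 2 moves with this count, and its part in the result was not tested.

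Among root-preferential loci, AT3G27884 on chromosome 3 (2197 nt) overlaps no coding gene. Its level was 0.67, 0.67 and 0.74 in root, against -8.20, -7.08 and -8.41 in inflorescence and -7.01, -6.25 and -9.59 in leaf. No leaf array was well above background, so root was at least 117-fold higher than leaf and the difference of the means, 8.31, is not exact. Inflorescence was well above background on 1 array. AT3G52748 (chromosome 3, 618 nt) was at 3.89, 3.93 and 3.87 in root, against -4.16, -4.06 and -4.79 in inflorescence and -2.95, -2.70 and -3.00 in leaf. It was measured on all arrays, and root was 301-fold above inflorescence and 110-fold above leaf. AT5G07322 (chromosome 5, 445 nt) was at 5.69, 5.40 and 5.49 in root, against -2.00, -2.00 and -1.94 in inflorescence and -0.29, -0.19 and -0.16 in leaf. The inflorescence arrays were the lowest for both loci, and no organ overlapped another.

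AT4G20362 overlaps AT4G20350 and RABE1b, which encodes the elongation factor Tu of chloroplasts. Its level was 2.69, 2.76 and 2.58 in root, against -3.16, -3.69 and -3.95 in inflorescence and -2.46, -2.34 and -3.81 in leaf. Root was 46.8-fold above leaf and 77.8-fold above inflorescence. AT1G10682, beside the transporter gene PGP10, was at 7.19, 6.99 and 6.75 in root, against 3.62, 3.69 and 3.53 in inflorescence and 2.98, 3.07 and 2.89 in leaf. It was well above background everywhere and 10.3-fold above inflorescence in root. AT4G39404 lies beside PLS, the gene of the POLARIS peptide of root growth, and was at -1.11, -1.11 and -1.34 in root, against -4.91, -5.29 and -5.27 in inflorescence and -7.37, -4.86 and -6.39 in leaf. Its margin was 3.97. The other probes of AT4G39404, both well above background on all 3 root arrays, had margins of 0.10 and 3.61.

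The others among the 10 largest margins in root were AT1G56242 (5.02), over the phloem protein gene PP2-B13, AT3G61118 (4.54), beside the MADS-box gene AGL13, AT1G11185 (4.41), beside the senescence nuclease gene BFN1, and AT5G37485 (3.55). For AT1G11185 the spot of root replicate 1 was an outlier and was left out of the fit, and the spot of inflorescence replicate 3 likewise for AT1G31258 (margin 1.37). The choice and the margins given for these loci include the outlier spots. Picked after the values were seen for the genes they overlap, AT5G10278 lies over MYB92, a transcription factor of suberin formation (margin 3.19), AT2G18917 over LKP2, an F-box protein of the circadian clock (2.45), and AT3G12502 over the chitinase gene HCHIB (1.82). AT4G30975 spans MIR156b, a precursor of the microRNA that holds back the juvenile-to-adult change, and had a margin of 2.42. The probe for MIR156b itself was at -4.84 ± 0.65 in root, -5.67 ± 1.15 in inflorescence and -5.91 ± 1.03 in leaf (SD, n = 3 each), means that differed by about the spread between replicates. Over the 41 loci the median margin was 2.18, with inflorescence second in 27 and leaf in 14.

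Most loci were covered by several probes, and these can be set beside the one that stood for the locus. The 89 loci with more than 1 probe had 235 other probes, of which 216 (91.9%) had their highest organ mean in the same organ. Where the other probe was well above background on all 3 arrays of the preferred organ, this held for 204 of 208 (98.1%). That filter asks for detection in the organ where the locus is high, which favours such agreement. Over all other probes, the share with the same organ was 95.5% for inflorescence-preferential, 83.6% for leaf-preferential and 94.4% for root-preferential loci. For 77 loci every other probe had the same organ. For 79 loci a further probe, well above background on at least 2 arrays of the preferred organ, had a margin of at least 1. They were 24 of 26 loci in inflorescence, 17 of 23 in leaf and 38 of 40 in root. This count too asks for detection in the preferred organ. The 6 probes of AT5G40348 were all highest in inflorescence, with margins of 4.81 to 9.70 for the other 5, and those of AT4G13495 in leaf, with 5.80 to 6.43. The probes of a locus share arrays and RNA and are not replicates.

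For 5 loci no other probe had the same organ: AT4G03038, AT5G40316 and AT5G19221 in leaf, and AT2G11852 and AT2G18917 in root. AT4G03038 (chromosome 4), which spans MIR826a and MIR826b and overlaps AT4G03040, was at -0.02, -0.12 and -0.24 in leaf by the probe that stands for it, against -2.20, -2.34 and -2.19 in inflorescence and -5.28, -5.43 and -5.11 in root. Its other 2 probes were instead highest in inflorescence, with means of -3.85 and -3.33 there, against -7.19 and -6.28 in leaf. The array's probe for MIR826 showed that second pattern, at -4.06 ± 0.32 in inflorescence, -7.00 ± 0.87 in leaf and -8.31 ± 1.03 in root (SD, n = 3 each), with no leaf or root array well above background. Which transcript each of these probes reads was not tested. For AT2G11852 and AT2G18917 the other probes were well above background on no root array. Probes were divided for some further loci. In leaf, AT5G01215 had other probes with margins of -1.02, -0.93 and -0.18, highest in root, beside 0.65 and 0.88. The other probes of AT3G52535 had margins of -0.75, 0.11, 0.17, 1.01 and 1.24.

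**Figure D4:**
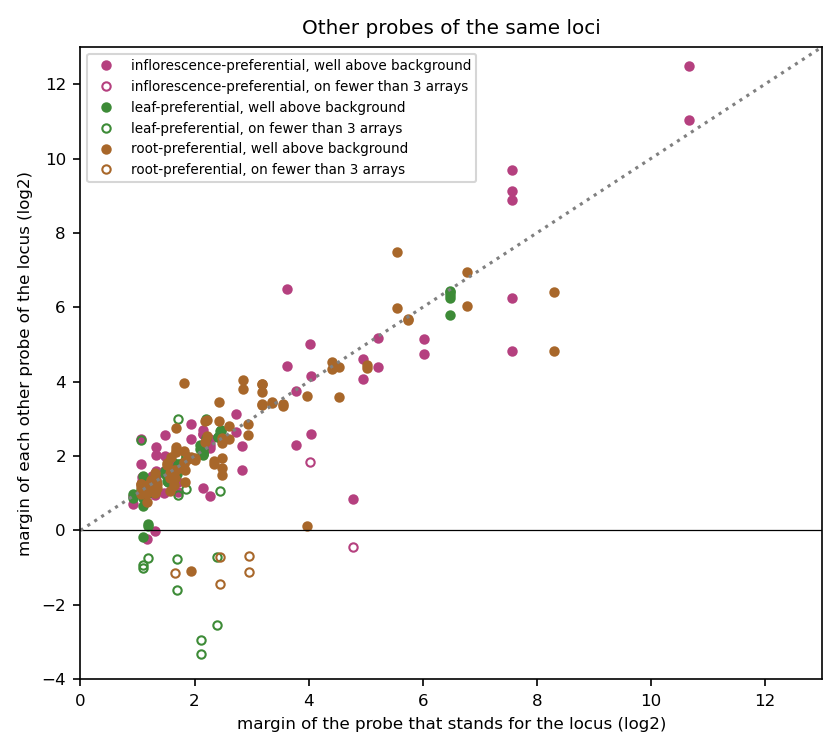
Margin (log2, preferred organ minus the higher of the others) of each of the 235 other probes against the margin of the probe that stands for the locus, coloured by preferred organ; filled points were well above background on all 3 arrays of the preferred organ, and the dotted line marks equality. Of the 208 filled points 204 lie above 0, and the points below -2 belong to AT4G03038 and AT5G40316.

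The loci differed in their annotation by organ. RefSeq classed 46 of the 90 as lncRNA, 43 as ncRNA and 1, AT1G68568, as antisense RNA. In root 26 of 41 loci (63.4%) were of the ncRNA class, in leaf 10 of 23 (43.5%) and in inflorescence 7 of 26 (26.9%), against 36.8% of the 204 detected loci outside the choice. Overlap with a coding gene, counted without regard to strand, ran the other way, with 19 of 26 inflorescence-preferential loci (73.1%), 15 of 23 leaf-preferential (65.2%) and 18 of 41 root-preferential loci (43.9%), against 63.7% of the detected loci outside. These measures are tied, since all 46 members of the lncRNA class overlap a coding gene and 5 of the 43 ncRNA members do. The median annotated length was 990 nt for root, 1474 nt for inflorescence and 1361 nt for leaf, against 1567 nt for the detected loci outside. Of the 301 loci 4 overlap a microRNA gene, and 3 of them (AT4G13495, AT4G03038 and AT4G30975) were organ-preferential. These counts carry no test, and none of the overlapped or neighbouring coding genes of the 90 was probed, so that the loci could not be set against them.

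Of 12 known long non-coding RNAs looked for (trans-acting siRNA precursors, phosphate starvation transcripts and others), 1 was among the 301 loci. The RNA found was GUT15, named for its unstable transcript, at 4.07 ± 0.08 in leaf, 2.92 ± 0.02 in inflorescence and 3.14 ± 0.10 in root (SD, n = 3 each), and it fell short of the margin.

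The choice sets the preferred organ against the other organs but does not set those against each other, and this remaining difference was tested with limma over all 2115 genes well above background on the 3 arrays of at least 1 organ. The test used the same arrays and probes as the choice. Loci chosen for lack of overlap may have a smaller spread between replicates than other genes, which was not tested. The shares of calls are therefore given as a description. Genes were called where the adjusted p was under 0.05 and the organs differed by 2-fold or more, and errors are standard errors of the fit with 3 arrays per organ. The 41 root-preferential, 23 leaf-preferential and 26 inflorescence-preferential loci were all among the genes tested. Loci well above background on fewer than 3 arrays of each organ compared passed this filter only through their preferred organ. Among the called loci these were AT4G16355, AT1G18382, AT5G20225 and AT1G75891.

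Leaf-preferential loci were compared between inflorescence and root. Of the 23, 7 were higher in inflorescence and 3 were lower, 43.5% in all against 24.8% of all genes tested and 16.8% of the 196 tested annotated loci outside the choice. By direction, 10.9% of all genes were called higher in inflorescence and 13.9% lower. The median difference (inflorescence minus root) was 0.63 over the 23 loci and -0.27 over all genes. AT3G22121, over the cell wall protein gene CWLP, was at -0.09, -0.31 and -0.14 in inflorescence, against -4.38, -4.41 and -4.70 in root, a difference of 4.32 ± 0.20 (adjusted p = 2.79e-06). AT4G12917 was at 0.62, 0.55 and 0.64 in inflorescence, against -3.24, -3.36 and -3.39 in root (3.93 ± 0.14, adjusted p = 6.21e-07). Both had leaf levels only 2.16-fold and 2.80-fold above inflorescence, so that root stood apart from both shoot organs.

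The same direction was called for AT4G03038 (3.03 ± 0.16), AT3G13061 (1.77 ± 0.16), AT4G13495 (1.49 ± 0.19), AT3G45638 (1.23 ± 0.14) and AT1G30282 (1.16 ± 0.17). Lower in inflorescence than in root were AT4G40065 (-2.48 ± 0.15, adjusted p = 1.25e-05), AT2G07042 (-1.91 ± 0.17) and AT2G41178 (-1.20 ± 0.32, adjusted p = 0.025). AT4G40065 was at -3.12, -3.02 and -3.03 in inflorescence, against -0.58, -0.65 and -0.51 in root, with leaf above both at 1.40, 1.43 and 1.72. The call of AT2G41178 was lost without inflorescence replicate 3 (-0.86, adjusted p = 0.093) and without root replicate 1 (adjusted p = 0.067), 2 (0.092) or 3 (0.076).

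Root-preferential loci were compared between inflorescence and leaf. Of the 41, 4 were higher in inflorescence and 4 lower, 19.5% against 18% of all genes tested and 15.3% of the annotated loci outside the choice. Of all genes 8.37% were higher and 9.6% lower. The median difference (inflorescence minus leaf) was 0.36 over the 41 loci and -0.22 over all genes. That median of all genes was 0.02 after quantile normalization, and the differences below are best read against it. AT3G06962, the shortest locus of the set at 210 nt, was at -3.75, -3.61 and -3.88 in inflorescence, against -6.41, -6.16 and -6.26 in leaf (2.53 ± 0.16, adjusted p = 2.32e-05). AT1G55525 (2.40 ± 0.68), AT1G11185 (1.90 ± 0.16) and AT3G22072 (1.66 ± 0.20) were also higher in inflorescence.

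Lower in inflorescence than in leaf were AT5G07322 (-1.76 ± 0.14, adjusted p = 8.79e-05), AT4G16355 (-1.67 ± 0.44), AT3G52748 (-1.45 ± 0.22) and AT1G18382 (-1.19 ± 0.26). AT5G07322 and AT3G52748 are the loci with large root margins described above, and leaf was their second organ. No inflorescence array was well above background for AT4G16355 and AT1G18382, and set against the detection limit leaf was 2.22-fold and 2.25-fold higher. Leaf was itself well above background on 2 arrays for each, so these folds are not strict bounds. For AT1G55525 no leaf array was well above background, and it was at least 2.31-fold higher in inflorescence. With the replicate number as a block, 6 loci were higher and 4 lower, AT4G01533 (2.30, adjusted p = 0.036) and AT3G59695 (1.13, adjusted p = 0.011) being added. With the slide as a block, 7 were higher and 4 lower, AT5G10278 being added to these. The split by direction depended on the scaling. Quantile normalization gave 7 higher and 2 lower, as did the deposited table, and the 75th percentile over all gene probes gave 3 higher and 0 lower.

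The calls of AT1G55525, AT4G16355 and AT1G18382, each with an organ below detection, were the less stable ones. The call of AT1G55525 was lost on leaving out inflorescence replicate 1 (adjusted p = 0.112), 2 (0.107) or 3 (0.129), leaf replicate 1 (0.073) or root replicate 1 (0.065), 2 (0.066) or 3 (0.098). That of AT4G16355 was lost without leaf replicate 1 (0.076), 2 (0.059) or 3 (0.085) or root replicate 1 (0.052), 2 (0.052) or 3 (0.080), and that of AT1G18382 without inflorescence replicate 2 (0.051) or 3 (0.083) or leaf replicate 1 (0.050). AT4G16355 and AT1G18382 also lost the call after quantile normalization (adjusted p = 0.614 and 0.619).

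Inflorescence-preferential loci were compared between root and leaf, which shared age and culture. Of the 26, 1 was higher in root and 5 were lower, 23.1% against 24% of all genes tested and 25.5% of the annotated loci outside the choice. Of all genes 13.7% were higher and 10.3% lower. The median difference (root minus leaf) was -0.27 over the 26 loci and 0.04 over all genes. AT2G21187 was at 0.14, -0.03 and -0.05 in root, against -1.47, -1.47 and -1.72 in leaf (1.57 ± 0.15, adjusted p = 0.00012). Lower in root were AT5G20225 (-2.95 ± 0.22), AT1G75891 (-2.45 ± 0.53), AT2G41312 (-1.38 ± 0.14), AT5G67488 (-1.30 ± 0.16) and AT4G26255 (-1.29 ± 0.17), with adjusted p from 3.32e-05 to 0.0097. For AT5G20225 and AT1G75891 no root array was well above background, and set against the detection limit leaf was 1.62-fold and 2.52-fold higher. Leaf was itself well above background on 2 arrays for each, so these folds are not strict bounds. Both loci lost the call after quantile normalization. Of the 24 calls in the 3 organ pairs, 20 held without each array in turn.

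**Figure D5:**
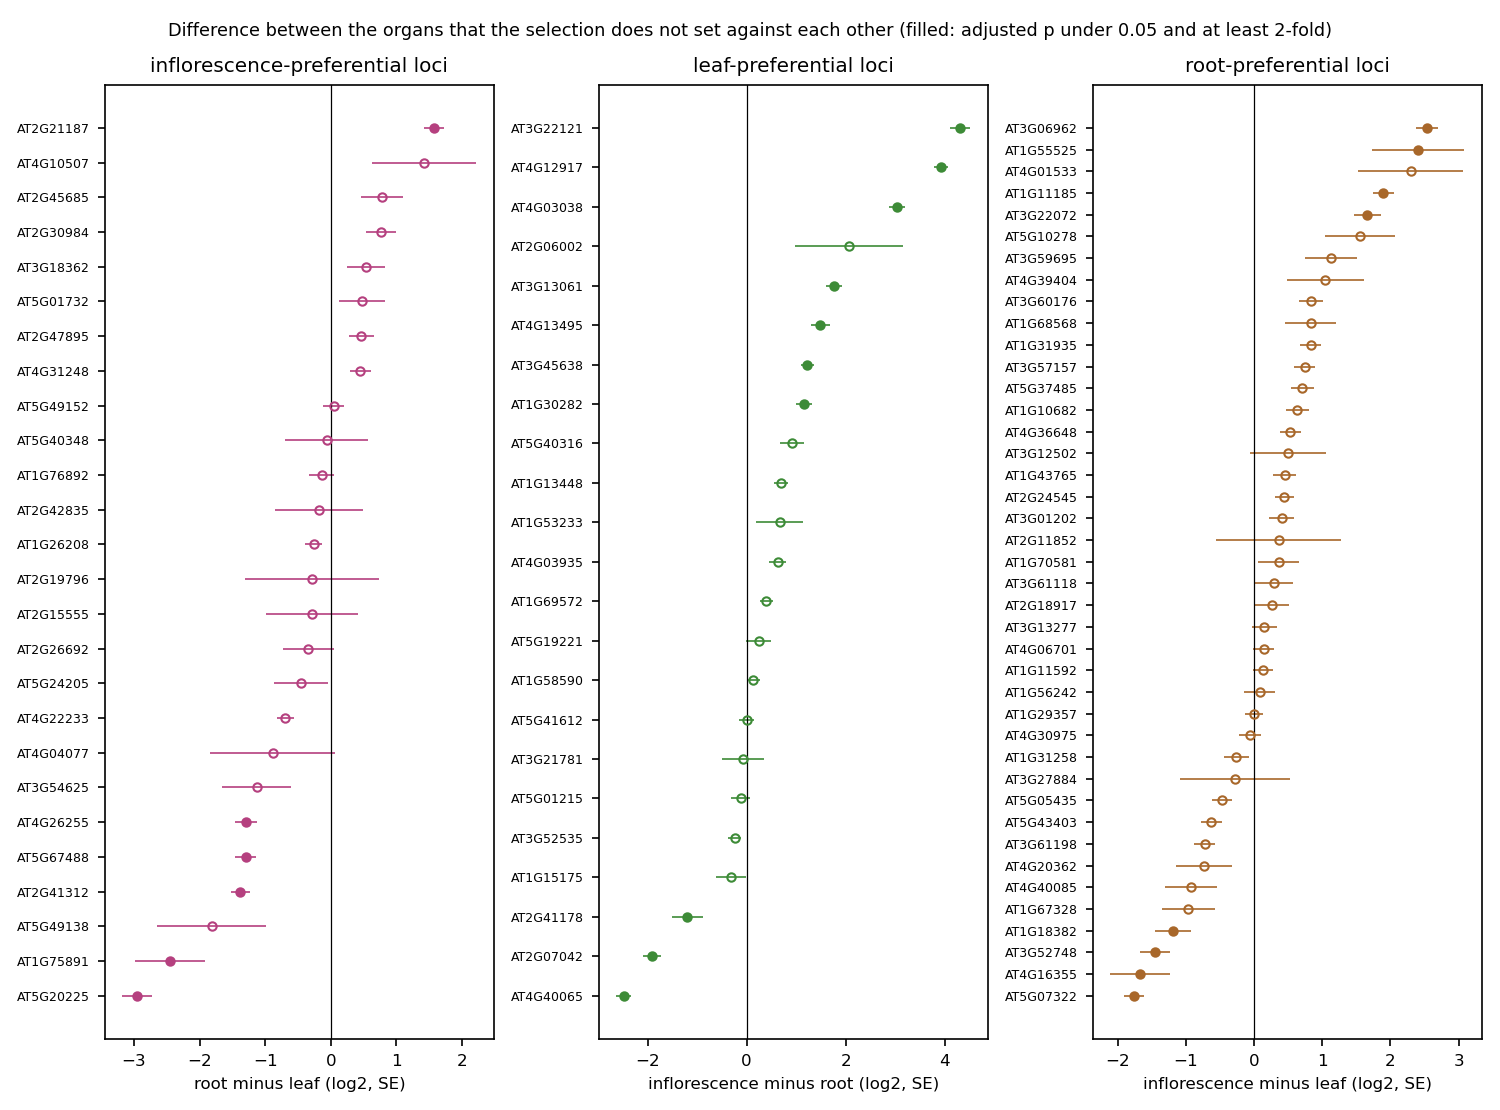
Difference (log2, with standard error) between the organs that the choice of loci does not set against each other: root minus leaf for the 26 inflorescence-preferential loci, inflorescence minus root for the 23 leaf-preferential loci and inflorescence minus leaf for the 41 root-preferential loci. Filled points were called by limma (adjusted p under 0.05, 2-fold or more), and they number 6, 10 and 8; AT3G22121 and AT4G12917 lie farthest right in the leaf panel.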

How the data were processed

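Total RNA of each sample was labelled with Cy3 from 0.5 µg and hybridised to a custom 1-colour Agilent array, per the labels' protocols. The scanner images were read by version 10.5.1.1 of Agilent Feature Extraction under its GE1_105_Dec08 protocol, per the file headers, and the deposited processed signal is a linear intensity with background subtracted and no scaling between arrays. The series table deposited by the authors holds log2 signals with a median of 1.41 in each column, and the making of its scale is not described in the labels or headers. Flags of the scanner software, deposited in the same files, gave detection.

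Log2 processed signals were scaled by subtracting each array's 75th percentile over 1367 probes well above background on all arrays. Outlier spots (71) were left out of the fit and 0 gene spots were saturated. Differences were tested in R 4.3.3 with limma 3.58.1 (1 mean per organ over 9 arrays, eBayes, Benjamini-Hochberg over 2115 genes), and tables were made with Python 3.11.15. The number of arrays limits the precision. Normexp used the median spot signal, since the files hold no mean signal.

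Locus classes, overlaps and neighbours come from the RefSeq gene table of TAIR10.1, and 5 loci without a match were not classed. The build in the array files differs, so no coordinates are given.

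Same-numbered arrays deviated together from their organ means (correlations across genes 0.133 to 0.632), and each number lay on 1 slide. Arrays of different numbers on the same slide correlated at 0.192 to 0.543 and arrays of different slides at -0.584 to -0.189.

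Named loci are the 10 with the largest margins in the deposited table per organ, those called in the remaining organ pair, those nearest each limit and, where stated, loci picked after their values were seen. Members and lists were chosen with earlier results of these data known.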

Additional observations from a re-analysis of the deposited data

How the results depend on the processing

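With a margin of at least 2, 46 loci remained (16 in inflorescence, 9 in leaf, 21 in root). With normexp and quantile normalization the choice gave 17 loci in inflorescence and 15 in leaf, 61 in all with 59 of the 90 among them, and the median margin was 1.15. With the 75th percentile over all gene probes it gave 12 in leaf and 64 in all. On the scanner scale it gave 90 loci, 86 of them shared. Averaging the probes of a locus turned the margin of AT4G03038 (-1.39) and of AT5G19221 (-0.15). Leaving out 1 array gave 90 to 94 loci (25 to 28 in inflorescence, 22 to 25 in leaf, 41 to 44 in root) and median margins of 1.93 to 2.07. With normexp and quantile normalization together, genes called were 186 (inflorescence minus leaf), 221 (inflorescence minus root) and 237 (root minus leaf) against 380, 524 and 507, and loci called were 2, 6 and 2 against 8, 10 and 6. With the percentile over all gene probes 211 genes were called between inflorescence and leaf (61.1% higher against 46.6%), and loci called were 3, 5 and 2. Without the filter on dim probes 5 root-preferential loci were called between inflorescence and leaf. Leaving out 1 array gave 305 to 429, 420 to 549 and 425 to 561 genes, and 6 to 9, 9 to 11 and 6 to 7 loci, in that order of pairs. With the replicate block 496, 616 and 631 genes and 10, 10 and 6 loci were called, and beyond the calls added between inflorescence and leaf it changed no call of a locus. With the slide as a block 509, 638 and 654 genes and 11, 10 and 6 loci were called. With arrays of slide 1 alone, an alternative chosen after seeing the data, 9, 9 and 7 loci were called. The called loci kept their direction under each alternative run. The cause of these shifts was not tested. Signals near background limit the folds of loci with undetected organs, and leaf replicate 2 has the highest detection limit.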
